A study of Mus musculus with 16 samples.

Results

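The 9 genes described here act in the intrinsic, or mitochondrial, pathway of apoptosis, and were taken as the rows named Bax, Bak1, Bcl2, Bcl2l1, Bcl2l11, Bbc3, Casp9, Apaf1 and Aifm1 in a table of 37255 gene intervals. All 9 names were found once. The assay was ATAC-seq, in which a transposase cuts accessible DNA and inserts sequencing adapters, on cells labelled as retinal ganglion cells, the neurons whose axons form the optic nerve. They were sorted by FACS from eyes, all mice being female. The 16 libraries comprised 5 from naive control mice that had no EAE, 4 from presymptomatic EAE mice, 3 from EAE mice at disease onset and 4 from EAE mice at disease peak. EAE, experimental autoimmune encephalomyelitis, is an induced autoimmune inflammation of the central nervous system that can damage the optic nerve and retina, and it was induced at 7 to 8 weeks of age. Strain, immunogen, clinical score and whether a library came from 1 mouse or several are not given in the sources used here, so the p-values below reflect only how these libraries vary, some of which may be technical. The labels name no genotype or transgene.

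In the intrinsic pathway, stress signals raise or activate BH3-only proteins, which bind the anti-apoptotic guardians BCL2 and BCL-XL and release or activate the effectors BAX and BAK. The effectors open pores in the outer mitochondrial membrane, and the cytochrome c that escapes assembles with APAF1 into the apoptosome, which activates caspase-9. The apoptosis-inducing factor, AIFM1, sits in the mitochondrial intermembrane space and can move to the nucleus during caspase-independent death. In the retina this pathway is best known from optic nerve injury, after which the death of mouse ganglion cells depends strongly on Bax.

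Each value is a count of reads over a gene's deposited span less 1000 bp at either end, so most gene starts lie outside what was counted. For 4 of the 9 genes an annotated start nevertheless fell inside the counted interval. RefSeq lists 1 start for Bax, 307 bases inside the interval, 3 for Bbc3 (263, 941 and 1111 bases inside) and 3 for Bcl2l1 (2069, 3080 and 5308 bases inside). Bcl2l11 has 2 listed starts, of which 1 lay 537 bases inside and the other was trimmed off. The single listed starts of Bak1, Bcl2, Casp9, Apaf1 and Aifm1 lay outside. The deposited table names no build. The lower coordinate of the deposited span equalled that of GRCm38.p6 for 8 of these 9 genes, and for 70.5% of all shared names. The upstream end, which is the higher coordinate on the minus strand, differed from GRCm38.p6 for Bax, Bak1, Bcl2l1 and Bbc3. Distances run from RefSeq starts to the edges of the deposited intervals and assume that build.

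**Figure D1:**
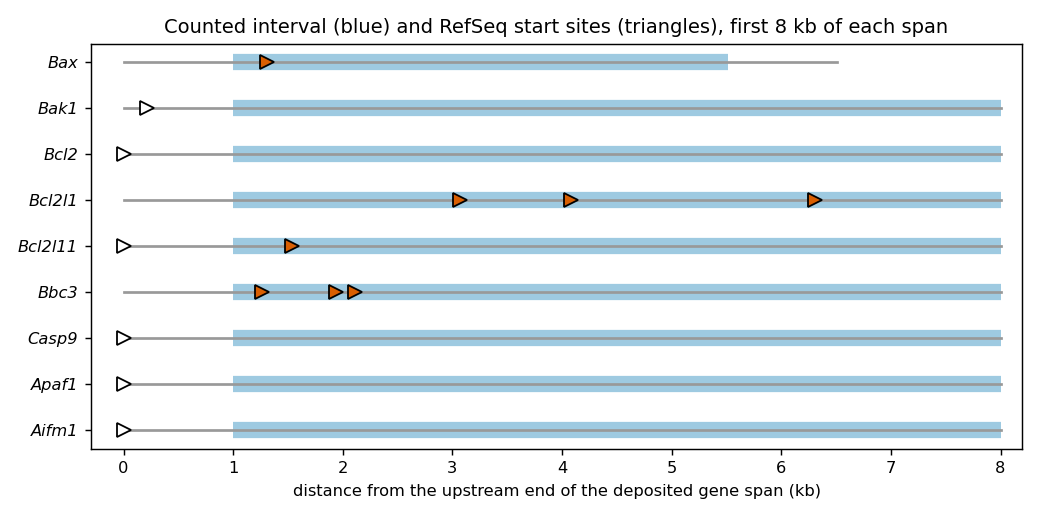
Map of the upstream 8 kb of each deposited gene span, with distance from the span's upstream end in kb on the x axis and 1 row per gene. Grey lines are spans, blue bars the counted interval, and triangles RefSeq start sites, filled where they lie inside the interval, which is the case for Bax, Bcl2l1, Bcl2l11 and Bbc3.

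The windows around these starts, 250 bases before to 50 bases after, are shown because their accessibility entered the counts of Bax, Bbc3, Bcl2l1 and Bcl2l11, and that of Aifm1 is set beside them as a start that was not counted. Of the 3 counted windows of Bbc3 and of Bcl2l1, the most upstream one is shown for Bcl2l1 and the most downstream one for Bbc3, which in both genes is the window with the most CpG dinucleotides. Sequences are from RefSeq (GRCm38.p6), 5′ to 3′ on the gene's strand, with GC boxes (GGGCGG on either strand) in capitals.
Bax, chr7:45466849-45467148, minus strand: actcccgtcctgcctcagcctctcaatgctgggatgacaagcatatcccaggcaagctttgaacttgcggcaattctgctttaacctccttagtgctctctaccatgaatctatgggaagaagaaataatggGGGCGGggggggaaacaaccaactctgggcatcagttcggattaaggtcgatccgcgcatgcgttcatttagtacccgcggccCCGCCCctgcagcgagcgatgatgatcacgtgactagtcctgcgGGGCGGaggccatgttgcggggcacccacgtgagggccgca
Bbc3, chr7:16310181-16310480, plus strand: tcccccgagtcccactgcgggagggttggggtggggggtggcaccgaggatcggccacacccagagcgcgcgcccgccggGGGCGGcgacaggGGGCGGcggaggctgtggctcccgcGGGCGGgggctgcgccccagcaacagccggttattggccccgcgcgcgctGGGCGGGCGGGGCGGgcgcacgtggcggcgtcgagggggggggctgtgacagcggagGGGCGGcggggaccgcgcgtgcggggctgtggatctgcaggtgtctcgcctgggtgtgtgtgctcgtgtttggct
Bcl2l1, chr2:152831679-152831978, minus strand: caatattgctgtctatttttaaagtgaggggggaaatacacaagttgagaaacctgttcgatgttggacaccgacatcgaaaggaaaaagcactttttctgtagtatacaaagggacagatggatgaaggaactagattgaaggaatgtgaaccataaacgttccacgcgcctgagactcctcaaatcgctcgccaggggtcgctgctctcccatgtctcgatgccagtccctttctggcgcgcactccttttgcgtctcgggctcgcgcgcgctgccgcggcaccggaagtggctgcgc
Bcl2l11, chr2:128127325-128127624, plus strand: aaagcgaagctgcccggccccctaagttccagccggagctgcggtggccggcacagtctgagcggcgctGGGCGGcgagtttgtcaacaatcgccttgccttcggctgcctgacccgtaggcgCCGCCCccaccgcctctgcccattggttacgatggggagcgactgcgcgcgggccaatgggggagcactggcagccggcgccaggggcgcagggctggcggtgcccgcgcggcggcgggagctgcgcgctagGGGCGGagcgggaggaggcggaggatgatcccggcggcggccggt
Aifm1, chrX:48513514-48513813, minus strand: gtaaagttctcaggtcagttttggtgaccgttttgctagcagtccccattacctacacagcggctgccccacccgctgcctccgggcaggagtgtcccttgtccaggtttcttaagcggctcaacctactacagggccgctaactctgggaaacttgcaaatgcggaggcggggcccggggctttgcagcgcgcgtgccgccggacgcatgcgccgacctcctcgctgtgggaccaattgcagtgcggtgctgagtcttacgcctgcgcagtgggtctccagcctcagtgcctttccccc
The Bax window held 3 GC boxes, the Bbc3 window 7, the Bcl2l11 window 3, and those of Bcl2l1 and Aifm1 none. The other Bbc3 windows held 5 and 4 GC boxes and the other Bcl2l1 windows none. At least 1 GC box was present in 35.7% of the 32851 windows of this length. The CpG count was 19 for Bax, 39 for Bbc3, 22 for Bcl2l1, 38 for Bcl2l11 and 21 for Aifm1, against a median of 7 over all windows. In the windows not shown it was 34 and 30 for Bbc3 and 14 and 1 for Bcl2l1. A p53 half-site, searched by its 10-letter consensus, which reads the same on both strands, occurred once in the Bax window and in none of the other 13 windows listed for these genes, and in 8.36% of all windows. Bax and Bbc3 are classical targets of the p53 tumour suppressor. A match is a run of letters and says nothing about binding in these cells.

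Libraries differed in depth and make-up in ways that touch the values below. Reads in nuclear gene intervals ranged from 1.58 M to 15.1 M per library (1 M is 1000000 reads), with 3.03 ± 0.978 M (SD) in the 4 peak and 7.92 ± 4.24 M in the 5 naive libraries. Mitochondrial genes took 34.4% to 64.7% of interval reads, except 8.36% in onset replicate 3. Olfactory and vomeronasal receptor genes, known chiefly from sensory neurons of the nose, took 0.201% to 0.580% of nuclear reads. This receptor share was at 0.508% to 0.580% in 3 libraries, naive 3, naive 4 and peak 3, and at most 0.405% elsewhere. Markers of the labelled cell type were present at a median density of 1.15 reads per kb of interval per M nuclear reads (16 of 16 tested), but rod markers (1.52, 14 tested) and amacrine cell markers (1.63, 8 tested) were denser, and those of Müller glia and astrocytes (0.921, 10 tested), microglia (0.558, 9 tested) and lymphocytes (0.506, 8 tested) were lower. Only markers that passed the count filter were tested, so none of them could be at 0. The filter kept 14 of 15 rod, 9 of 12 microglia and 8 of 10 lymphocyte markers. Density within gene bodies does not by itself tell cell types apart. At peak 15 of the 16 ganglion cell markers were above naive, against 47.1% of all genes, at a median log2 fold change of 0.26. Of these markers 0 passed edgeR over all genes and 0 had an unadjusted p under 0.05, against 3.61% of all genes. Markers of Müller glia and astrocytes lay the other way at peak, with 9 of 10 below naive at a median of −0.42. Of these, 0 passed and 2 had an unadjusted p under 0.05. Amacrine cell markers had 6 of 8 below naive at peak (median −0.42) and microglia markers 6 of 9 (−0.24). Rod markers had 7 of 14 below naive (−0.02) and lymphocyte markers 4 of 8 (−0.10). The part of any of these lists in the peak values below was not tested. Fewer cells of a type and less open chromatin per cell cannot be told apart in such bulk libraries.

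Per length of interval, Bbc3, the gene of the BH3-only protein PUMA, was the most accessible of the 9. It averaged 5.29 ± 2.27 reads per kb per M nuclear reads (SD, n = 16), which placed it at percentile 97.9 of the 29754 tested nuclear genes with intervals of at least 500 bp. Bax, the pore-forming effector, followed at 1.62 ± 0.699 (percentile 90.2), Bcl2l11, which encodes the BH3-only protein BIM, at 1.38 ± 0.312 (86.8), Bcl2, the founding guardian, at 1.16 ± 0.111 (81.3) and Bcl2l1, which encodes BCL-XL, at 1.03 ± 0.232 (76.1). Aifm1 stood at 0.822 ± 0.343 (63.1), Apaf1, the apoptosome scaffold, at 0.646 ± 0.193 (46.6), Casp9, the initiator caspase, at 0.632 ± 0.212 (45.0) and Bak1, the second effector, at 0.494 ± 0.281 (27). Bbc3 exceeded Bax in 16 of 16 libraries. The neighbours further down the order did not separate: each was above the next in 6 to 11 of the 16 libraries.

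**Figure D2:**
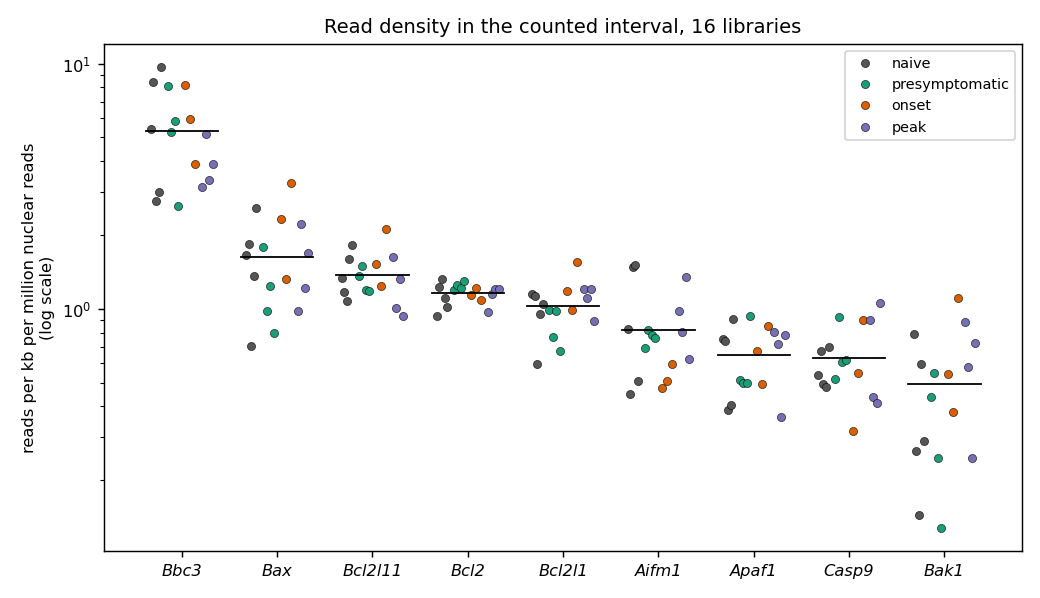
Reads per kb of counted interval per M nuclear reads (log scale) for the 9 genes, ordered by their mean over 16 libraries (black line). Points are libraries, coloured by stage. Bbc3 lies above every other gene on average at 5.29, while the remaining genes overlap from one to the next.

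The genes with a start inside the counted interval took 4 of the 5 highest places. Across tested genes with spans of 5 to 12 kb, which is the class of Bax, Bak1 and Bbc3, the median density was 0.772 for the 602 with a listed start inside and 0.578 for the 4271 without. Among genes of 30 to 80 kb, which is the class of Bcl2l1, Bcl2l11 and Aifm1, it was 0.767 for 985 genes with a start inside and 0.620 for 3240 without. Levels of these genes relative to each other therefore mix gene bodies with starts for some members and not for others.

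Overlapping genes add a further limit, since ATAC-seq reads carry no strand of transcription and how reads in overlaps were assigned was not given. The counted interval of Bak1 lay wholly (7028 bp) within Ggnbp1 on the opposite strand, and Bak1 had only 2 to 77 reads per library. Cox4i2 covered 5308 bp and Gm32211 1405 bp of the Bcl2l1 interval. Gm37053 covered 11183 bp and Mir3473f 136 bp of the Bcl2 interval, and Cela2a covered 16 bp of the Casp9 interval. These lengths are for the deposited spans of the other genes. With their ends trimmed too, the overlap was 4308 bp for Cox4i2, 595 bp for Gm32211, 9183 bp for Gm37053 and 0 bp for Cela2a. For Mir3473f, a span shorter than the 2000 bp trimmed, it was 1864 bp. No other deposited span reached into the counted intervals of Bax, Bcl2l11, Bbc3, Apaf1 and Aifm1. Overlaps confined to the trimmed 1000 bp ends were not listed.

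No gene of the 9 passed the test at any stage. In simulated counts for onset against naive the test recovered 12% of 2-fold changes, so changes of that size could be missed. At the presymptomatic stage 2 of the 9 genes were above naive and 7 below, with a median log2 fold change of −0.15, beside a median of −0.06 over the 29902 genes tested, of which 41.6% were above naive. At onset 4 were above and 5 below (median −0.01, all genes −0.01, with 48.6% of them above), and at peak 3 were above and 6 below (−0.06, all genes −0.03, with 47.1% above). edgeR's quasi-likelihood test called 0 of the 9 genes and 0 of the 29902 genes (0%) in each comparison with naive, at a Benjamini-Hochberg adjusted p under 0.05. The lowest adjusted p among the 9 genes was 1.00 at the presymptomatic stage, 0.972 at onset and 1.00 at peak. At an unadjusted p under 0.05 the counts among the 9 genes were 0, 1 and 0 at the presymptomatic, onset and peak stages, against 1.16% (348 genes), 4.95% (1480 genes) and 3.61% (1080 genes) of all genes. DESeq2 called 0, 0 and 1 genes (516, 1834 and 1373 at an unadjusted p under 0.05) and limma-trend called 0 at each stage (401, 1089 and 1252). No gene of the 9 had CPM values that were wholly above or below naive at any stage, against 0.846%, 2.53% and 0.977% of all genes in the presymptomatic, onset and peak comparisons. An F test over the 3 contrasts gave adjusted p = 1.00 for each of the 9 genes and called 0 genes overall (0%), with 3.16% at an unadjusted p under 0.05.

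**Figure D3:**
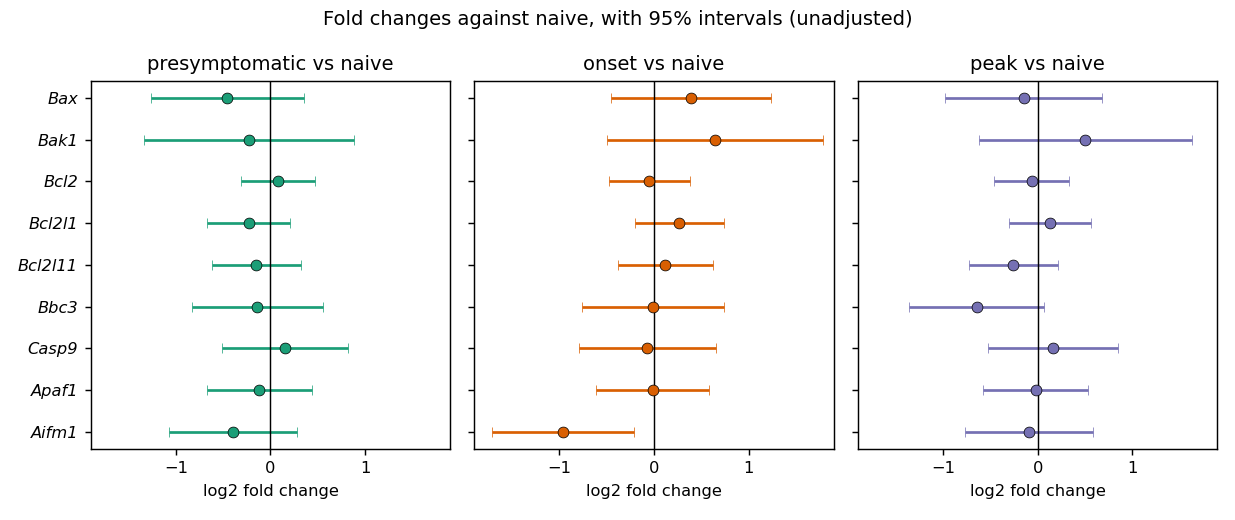
Log2 fold change of each gene at the presymptomatic, onset and peak stages against naive, from edgeR, with 95% intervals that are not adjusted for multiple testing. The interval of Aifm1 at onset, centred at −0.96, is the only one that leaves out 0, and its adjusted p is 0.972.

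The effector genes were measured with few reads. Bax had 3.74, 4.32, 1.92, 3.27 and 6.31 CPM (counts per M interval reads, TMM-scaled) in naive libraries 1 to 5 and 4.01, 2.25, 3.06 and 1.86 CPM in presymptomatic libraries 1 to 4. It had 5.52, 3.30 and 6.68 CPM in onset libraries and 2.13, 5.27, 3.05 and 3.73 CPM in peak libraries. The highest value was that of onset replicate 3, the lowest that of presymptomatic replicate 4, and all stages overlapped naive. The log2 fold change against naive was −0.45 ± 0.40 (SE) at the presymptomatic stage, 0.39 ± 0.41 at onset and −0.15 ± 0.40 at peak. The reads behind these values numbered 8 to 145 per library.

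Bak1, which can act in place of Bax in many cell types, averaged 1.53 ± 0.918 CPM (± SD) in the 5 naive libraries, 1.22 ± 0.652 in the 4 presymptomatic, 2.34 ± 1.08 in the 3 onset and 2.14 ± 0.857 in the 4 peak libraries. Its highest value, 3.55 CPM from 77 reads, was again in onset replicate 3 and its lowest, 0.466 CPM from 2 reads, in presymptomatic replicate 4. The 95% interval of the onset log2 fold change ran from −0.50 to 1.79.

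The guardian Bcl2 was the steadiest of the 9 genes, with a coefficient of variation of 9.62% in reads per kb over the 16 libraries, against 22.6% to 56.8% for the others. It also rested on the most reads, 330 to 3218 per library. It averaged 106 ± 21.5 CPM (± SD) in the 5 naive libraries, 112 ± 6.18 in the 4 presymptomatic, 102 ± 15.3 in the 3 onset and 101 ± 14.9 in the 4 peak libraries. The 95% intervals of its log2 fold change against naive were −0.31 to 0.47 at the presymptomatic stage, −0.48 to 0.38 at onset and −0.45 to 0.33 at peak.

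The other guardian gene, Bcl2l1, had 42.6, 43.2, 26.7, 37.4 and 42.1 CPM in naive libraries 1 to 5 and 36.5, 28.8, 39.7 and 25.8 CPM in presymptomatic libraries 1 to 4. It had 46.1, 40.3 and 52.3 CPM in onset libraries and 42.7, 43.3, 49.6 and 32.3 CPM in peak libraries. All 3 onset libraries lay above all 4 presymptomatic ones, while onset and naive libraries overlapped. The difference between onset and presymptomatic libraries was 0.49 ± 0.24 (SE) on the log2 scale (edgeR unadjusted p = 0.0489, adjusted p = 1.00), and it was 0.39 without onset replicate 3, the library of lowest mitochondrial share, and 0.29 without both onset replicate 3 and presymptomatic replicate 4. Against naive the values were −0.23 ± 0.21, 0.27 ± 0.23 and 0.13 ± 0.21 at the presymptomatic, onset and peak stages.

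Of the BH3-only genes, Bbc3 varied widely between libraries of 1 stage. It had 21.7, 35.1, 13.3, 12.8 and 42.1 CPM in naive libraries 1 to 5 and 32.3, 21.4, 25.6 and 10.9 CPM in presymptomatic libraries 1 to 4. In onset libraries it had 34.5, 26.2 and 14.2 CPM and in peak libraries 12.05, 21.8, 14.9 and 15.2 CPM. The naive libraries split into 3 at 21.7 CPM or more and 2, replicates 3 and 4, at 13.3 CPM or less, and the peak libraries spanned the gap. The 4 peak libraries averaged 16.01 ± 4.13 CPM (SD) against 25.0 ± 13.1 CPM in the 5 naive ones, which gave a log2 fold change of −0.65 ± 0.35 (SE, edgeR unadjusted p = 0.0745, adjusted p = 1.00). Its size moved with the naive libraries: it was −0.38 without naive replicate 5 and −1.005 when the 3 high-share libraries, naive 3 and 4 and peak 3, were left out (unadjusted p = 0.00558, adjusted p = 0.693). At the presymptomatic stage and at onset the fold changes were −0.14 ± 0.34 and −0.01 ± 0.37.

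Bcl2l11 averaged 26.0 ± 5.58 CPM (± SD) in the 5 naive libraries, 23.4 ± 2.17 in the 4 presymptomatic, 28.1 ± 4.99 in the 3 onset and 21.6 ± 5.32 in the 4 peak libraries. Its log2 fold changes against naive were −0.15 ± 0.23 (SE), 0.12 ± 0.25 and −0.26 ± 0.23 at the presymptomatic, onset and peak stages. BIM is induced in many injured neurons through transcription factors that include FOXO3, whose gene is described with the wider pathway.

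The apoptosome genes had similar means in all stages. Apaf1 averaged 31.2 ± 10.6 CPM (± SD) in the 5 naive libraries, 29.0 ± 10.3 in the 4 presymptomatic, 30.9 ± 5.55 in the 3 onset and 30.8 ± 8.31 in the 4 peak libraries. Its log2 fold changes against naive were −0.12 ± 0.27 (SE), −0.01 ± 0.29 and −0.02 ± 0.27 at the presymptomatic, onset and peak stages. The presymptomatic value was −0.38 without presymptomatic replicate 4, −0.41 with the 3 high-share libraries left out and 0.06 without naive replicate 5. Within the stages it was uneven, with 44.5 CPM in presymptomatic replicate 4 against 23.3 to 25.0 CPM in the other presymptomatic libraries, and 18.3 CPM in peak replicate 3 against 34.5 to 35.1 CPM in the other peak libraries. Casp9 averaged 6.30 ± 1.09 CPM (± SD) in the 5 naive libraries, 7.03 ± 1.83 in the 4 presymptomatic, 5.95 ± 2.48 in the 3 onset and 7.18 ± 2.98 in the 4 peak libraries, with log2 fold changes against naive of 0.15 ± 0.33 (SE), −0.07 ± 0.35 and 0.16 ± 0.33 at the presymptomatic, onset and peak stages.

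**Figure D4:**
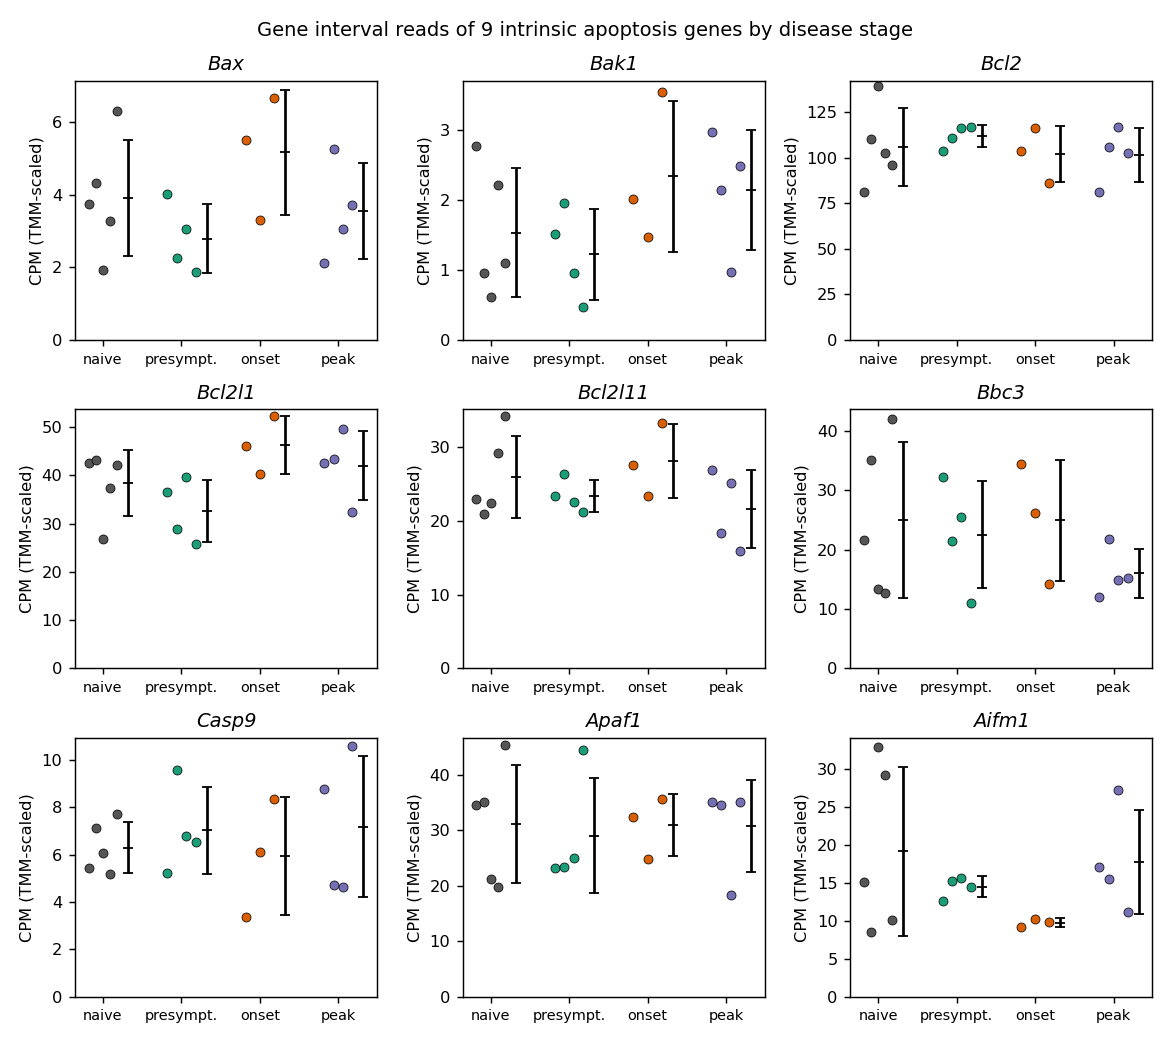
TMM-scaled CPM of the 9 genes in every library (points) by stage, with the mean and SD of each stage as a black bar. Each y axis starts at 0 and has its own scale. Stages overlap naive for every gene, onset Bcl2l1 lies above presymptomatic, and onset Aifm1 forms a tight group at 9.17 to 10.3 CPM.

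Aifm1, on chromosome X (48474944 to 48513563, minus strand, as deposited and written from 1), had the largest fold change of the 9 genes. It had 15.1, 8.54, 32.9, 29.2 and 10.1 CPM in naive libraries 1 to 5 and 12.6, 15.3, 15.6 and 14.4 CPM in presymptomatic libraries 1 to 4. It had 9.17, 10.3 and 9.91 CPM in onset libraries and 17.1, 15.5, 27.3 and 11.2 CPM in peak libraries. The onset libraries were close together and below all presymptomatic and all peak libraries, but naive replicates 2 and 5, at 8.54 and 10.1 CPM, lay within their range or below it. The 3 onset libraries averaged 9.78 ± 0.559 CPM (SD) against 19.2 ± 11.2 CPM in the 5 naive ones, which gave a log2 fold change of −0.96 ± 0.37 (SE, edgeR unadjusted p = 0.0143, adjusted p = 0.972). Peak libraries exceeded onset ones by 0.87 ± 0.38 (SE, unadjusted p = 0.0315, adjusted p = 0.737).

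The high Aifm1 values were those of naive libraries 3 and 4 and of peak library 3, which were also the libraries of highest receptor share and of highest chromosome X share. Genes of chromosome X other than Aifm1 took 8.17%, 7.10% and 7.79% of nuclear reads in these 3 libraries, against 3.08% to 5.48% in the other 13. Across the 16 libraries log2 CPM of Aifm1 rose with the log2 share of the other X genes (Pearson r = 0.930, Spearman rho = 0.874, p = 1e-05 and 4e-05 by permutation, adjusted over 27 relations 0.000135 and 0.00054). The first of these p-values is the smallest the permutations can give. The libraries fell into separate groups, and within the 13 without the 3 highest r was 0.757 and rho 0.769 (p = 0.00361 and 0.00336 by permutation, adjusted p = 0.0325 and 0.0302). Within stages r was 0.934, and without the 2 farthest libraries 0.867. With the log2 receptor share r was 0.929 and rho 0.888 (p = 1e-05 and 2e-05 by permutation, adjusted p = 0.000135 and 0.00054), r was 0.874 without the 2 farthest libraries and 0.968 within stages, and in the 13 libraries r was 0.797 and rho 0.791 (p = 0.00171 and 0.00206 by permutation, adjusted p = 0.0231 and 0.0302).

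**Figure D5:**
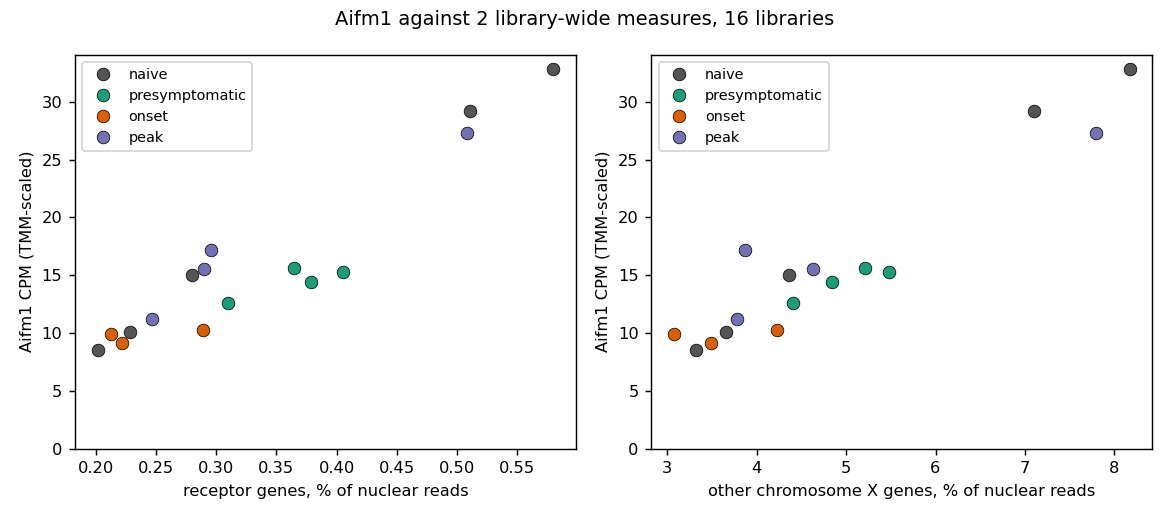
TMM-scaled CPM of Aifm1 against the share of nuclear reads at olfactory and vomeronasal receptor genes (left) and at chromosome X genes other than Aifm1 (right), both in percent, for 16 libraries coloured by stage. Naive replicates 3 and 4 and peak replicate 3 stand apart at 27.3 to 32.9 CPM. Onset libraries lie at receptor shares of 0.212% to 0.289% and X shares of 3.08% to 4.23%, with onset replicate 2 the highest of them on both.

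Other genes of chromosome X also lay below naive at onset. The 1099 tested X genes had a median log2 fold change of −0.67 at onset against naive, with 92.6% below naive, while the 28732 autosomal genes had a median of 0.00 with 49.7% below. By size, 25.2% of X genes were lower than Aifm1. The X share without Aifm1 was 3.08% to 4.23% in onset libraries and 3.33% to 4.36% in naive replicates 1, 2 and 5. The X medians were not computed without the high-share libraries. Counted per 1000 reads of other X genes, Aifm1 had 0.549 ± 0.140 reads in onset (SD, n = 3) and 0.627 ± 0.122 in naive libraries (SD, n = 5). The difference of −0.0780 was within the spread between libraries (2-sided exact permutation p = 0.429, adjusted p = 0.476 over 3 stages). The presymptomatic and peak differences on this scale were −0.0660 and 0.0717 (exact permutation p = 0.333 and 0.476, adjusted p = 0.476 for each). With the receptor share as a covariate in edgeR the onset log2 fold change was −0.22, and with the 3 high-share libraries left out it was −0.19. This scale and the set of 3 libraries were chosen after the data were seen.

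Bax and Apaf1 also moved with the receptor share, in the opposite direction. Bax fell with it across the 16 libraries (r = −0.718 with permutation p = 0.00181, adjusted p = 0.00977; rho = −0.797 with permutation p = 0.00042, adjusted p = 0.00378), with r at −0.707 without the 2 farthest libraries, −0.653 within stages and −0.785 without the 3 highest libraries. For Apaf1 r was −0.728 (permutation p = 0.00172, adjusted p = 0.00977) and rho −0.659 (permutation p = 0.00719, adjusted p = 0.0324), with r at −0.623 without the 2 farthest libraries and −0.770 within stages. In the 13 libraries without the 3 highest, the Apaf1 relation kept its direction but was weaker and did not pass (r = −0.429, permutation p = 0.144, adjusted p = 0.388). Whether it differs from the relation over 16 libraries was not tested. For the remaining 6 genes r with the receptor share lay between −0.542 and 0.551 and did not pass adjustment, although Bcl2l1 did in the 13 libraries by r (−0.709, permutation p = 0.00585, adjusted p = 0.0395) and not by rho (−0.714, permutation p = 0.00821, adjusted p = 0.0554). With the chromosome X share, Apaf1 gave r = −0.759 and rho = −0.709 (permutation p = 0.00053 and 0.0026, adjusted p = 0.00477 and 0.014) and, in the 13 libraries, r = −0.461 (adjusted p = 0.374). Bax gave r = −0.607 (permutation p = 0.0126, adjusted p = 0.0567) and rho = −0.724 (permutation p = 0.00211, adjusted p = 0.014).

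Rod photoreceptor genes were higher at onset in these libraries: all 14 tested markers were above naive, at a median log2 fold change of 0.90, and their mean log2 CPM was 4.13 to 4.97 in onset and 3.22 to 4.12 in naive libraries. None of the 14 passed over all genes with edgeR, and 9 had an unadjusted p under 0.05, against 4.95% of all genes. Of all genes 48.6% were above naive at onset. Of the 9 genes, none had a relation to this rod score across the 16 libraries that passed adjustment (r between −0.344 and 0.381, lowest adjusted permutation p = 0.259 for r and 0.155 for rho). Within stages r ran from −0.609 (Bbc3) to 0.465 (Casp9), and these values were not tested. The part of rod chromatin in the onset values of the 9 genes was not tested beyond this.

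Ratios of an effector or BH3-only gene to a guardian, in reads per kb, overlapped between stages. The intervals of Bax, Bbc3 and Bcl2l11 hold a listed start and that of Bcl2 does not, so ratios to Bcl2 compare unlike intervals. The ratio of Bax to Bcl2 was 1.52 ± 0.736 (SD) in the 5 naive libraries (0.531 to 2.54), 0.978 ± 0.383 in the 4 presymptomatic (0.615 to 1.497), 2.05 ± 0.954 in the 3 onset (1.10 to 3.00) and 1.34 ± 0.434 in the 4 peak libraries (1.01 to 1.93). The ratio of Bbc3 to Bcl2 was 5.41 ± 3.08 (SD) in the 5 naive, 4.45 ± 1.96 in the 4 presymptomatic, 5.24 ± 1.84 in the 3 onset and 3.43 ± 0.733 in the 4 peak libraries. In the same order of stages, the mean ratio of Bax to Bcl2l1 was 1.63, 1.385, 1.80 and 1.43. That of Bcl2l11 to Bcl2 was 1.29, 1.06, 1.44 and 1.11.

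The 9 genes did not vary as a block. Of the 36 pairs among them 16 had a positive correlation of log2 CPM over the 16 libraries, with a median r of −0.02. Bcl2 and Bak1 ran in opposite directions (r = −0.783, rho = −0.838, permutation p = 0.00035 and 0.0001, adjusted over 36 pairs 0.0126 and 0.0036, r = −0.730 without the 2 farthest libraries, −0.786 within stages). The Bak1 counts were 2 to 77 reads per library from an interval wholly within Ggnbp1, so they may not belong to Bak1 alone. Bax and Bcl2l1 rose together by r (0.706, rho = 0.612, p = 0.00215 and 0.0134 by permutation, adjusted p = 0.0387 and 0.0965, r = 0.552 without the 2 farthest libraries, 0.625 within stages). CPM values share library size and scaling, and in the 13 libraries of lower receptor share r was −0.720 for Bcl2 and Bak1 and 0.730 for Bax and Bcl2l1, of similar size over fewer libraries, with an adjusted permutation p of 0.0929 for each.

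The genes whose log2 CPM was most like that of each member over the 16 libraries, by Pearson's r and as a description, were found as follows. For Aifm1 they were Pola1 (r = 0.969), a DNA polymerase gene also on chromosome X, and Gm44501 (0.963), and 54 of the 100 most alike genes were X-linked, against 3.68% of all tested genes. For Bbc3 they were Sbk1 (0.938) and Fam84b (0.937), for Apaf1 Snapc1 (0.938) and Palm (0.879), and for Bcl2 Gm30162 (0.930) and A230057D06Rik (0.904). For Bax they were Ppargc1b (0.904) and Gm19412 (0.901), for Bcl2l1 Gm29873 (0.890) and Rsf1 (0.856), and for Bak1 Spata13 (0.880) and Atp6v0a1 (0.868). Bcl2l11 was most like Slc25a39 (0.854) and Gm26627 (0.831), and Casp9 like Gm31704 (0.828) and Fam83e (0.813).

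In comparisons between stages, 6 of the 9 genes were higher at onset than at the presymptomatic stage (53.3% of all genes), 2 were higher at peak than at onset (52.1%) and 6 were higher at peak than at the presymptomatic stage (53.3%). An unadjusted p under 0.05 was found for Bcl2l1 between onset and presymptomatic libraries (4.13% of all genes), for Aifm1 between peak and onset libraries (6.65%), and for 0 of the 9 genes between peak and presymptomatic libraries (3.41%). edgeR called 0 genes (0%) in each, with 1234, 1987 and 1019 at an unadjusted p under 0.05. DESeq2 called 1, 5 and 0 genes (1481, 2409 and 1362 unadjusted), and limma-trend called 0 in each (1320, 2059 and 1327). CPM values did not overlap between onset and presymptomatic libraries for 2 of the 9 genes, Bcl2l1 (higher) and Aifm1 (lower), against 10.1% of all genes, and between peak and onset libraries for 1, Aifm1 (higher), against 6.75%. Peak and presymptomatic libraries did not overlap for 0 of the 9 genes, against 2.72%. The log2 differences of the other genes in these comparisons lay between −0.63 (Bbc3, peak against onset) and 0.87 (Bak1, onset against presymptomatic). The differences of Aifm1 had the direction of most X genes. The 1099 tested X genes had a median of −0.51 for onset against presymptomatic, with 89.4% lower, and autosomal genes 0.05. For peak against onset the X median was 0.59, with 13.2% lower, and the autosomal median 0.01.

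The wider pathway showed no call either. Of 51 further genes of cell death, 49 were tested, and 0 passed in either direction at any stage. They were split at 20 above and 29 below naive at the presymptomatic stage (median log2 fold change −0.06), 20 and 29 at onset (−0.04) and 22 and 27 at peak (−0.02). Of all genes 41.6%, 48.6% and 47.1% were above naive at these stages, at medians of −0.06, −0.01 and −0.03. The same shares apply to the shorter lists below. The upstream inducers, which sense stress and raise BH3-only genes, had 7 of 9 tested members above naive at onset (median 0.35) and 3 of 9 at peak (−0.15). Among them Map3k12, the DLK kinase that relays axon damage, had 10.1 CPM on average at onset against 5.85 CPM in naive (0.78 ± 0.32, SE, edgeR adjusted p = 0.972), and Foxo3, a transcription factor that can induce Bcl2l11 and Bbc3, had 84.5 against 60.3 CPM (0.49 ± 0.21, adjusted p = 0.972). On the lower side at onset were Fadd, the adaptor of death receptors (0.665 against 1.55 CPM), and Aifm3, a relative of Aifm1 (3.63 against 6.07 CPM).

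At peak, the anti-apoptotic Bcl2l2, which encodes BCL-W, had the smallest p of the list, with 3.50 CPM on average against 1.05 CPM in naive (1.70 ± 0.61, SE, edgeR unadjusted p = 0.00984, adjusted p = 1.00). Vdac2, an outer-membrane channel that binds BAK, had 4.30 against 1.96 CPM (1.09 ± 0.49, adjusted p = 1.00). Ppif, the cyclophilin of the mitochondrial permeability pore, was at 0.858 against 1.84 CPM and Dffb, the nuclease that cuts DNA in apoptosis, at 2.03 against 3.97 CPM. TMM-scaled library sizes were 3.22 M to 7.06 M at peak and 4.29 M in presymptomatic replicate 4. Low CPM values, such as those of Ppif here and of Fadd at the other stages, therefore rest on few reads. At the presymptomatic stage the genes with the smallest p were Fasl (1.66 against 1.20 CPM) and Map3k12 (6.91 against 5.85 CPM) on the higher side and Fadd (0.552 against 1.55 CPM) and Dffb (2.00 against 3.97 CPM) on the lower side (adjusted p = 1.00 for each). Other anti-apoptotic genes had 1 of 6 above naive at onset (median −0.28) and 2 of 6 at peak (−0.23), mitochondrial factors 3 of 7 (−0.28) and 2 of 7 (−0.68), BH3-only and effector relatives 2 of 7 (−0.03) and 4 of 7 (0.02). Downstream caspases and nucleases had 2 of 7 above naive at onset (−0.12) and 4 of 7 at peak (0.02), inhibitors of apoptosis 1 of 5 (−0.09) and 2 of 5 (−0.01), and genes of the extrinsic, death receptor pathway 4 of 8 (−0.01) and 5 of 8 (0.12).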

How the data were processed

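Values deposited by the authors were raw read counts per gene interval, unscaled, and the RPKM values deposited by the authors, which were used only to recover library totals, divided each count by that total and by the gene's span less 2000 bp. Tools named in the submitters' processing notes are cutadapt, HISAT2 and HTSeq, without versions. The build, duplicate removal, read-end shift and treatment of multiply aligned reads are not given in the sources used here, so their effect on the counts is unknown. Total reads per library, recovered from the RPKM values, were 7.42 M to 65.2 M (1 M is 1000000 reads), in libraries of 10 PCR cycles. No column was left unmapped (0). The gene lists and the 9 members were chosen with earlier results of these data known.

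Counts were tested in R 4.3.3 with edgeR 4.0.16: filterByExpr (minimum count 10, minimum total 15), TMM scaling, a quasi-likelihood fit with a mean per group over all 16 libraries, and Benjamini-Hochberg adjustment over all 29902 tested genes. Standard errors derive from the F statistic. Log2 CPM used a prior count of 2, and permutation tests 100000 resamples or, where called exact, full enumeration. DESeq2 1.42.0, limma 3.58.1 (limma-trend), other scalings, no filter, a receptor share covariate, a replicate block and libraries left out were alternatives. Replicates of 1 stage differed by at least 5.53 times the counting noise (chi-square per degree of freedom), so each was counted once. The wider pathway genes named are the 2 with the smallest p on each side in a comparison with naive. Fold changes between stages are named where the unadjusted p was under 0.05. The code was tested on simulated counts for onset against naive. There edgeR recovered 12% of 100 simulated 2-fold changes and 74% of 100 simulated 4-fold changes, and 9.47% of its calls were false. A lack of calls therefore does not show an absence of 2-fold changes.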

Additional observations from a re-analysis of the deposited data

Results flagged for a closer look

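Apaf1 in presymptomatic replicate 4 stood far above the other presymptomatic libraries, at 44.5 CPM against 23.3 to 25.0 CPM. That library had 191 reads for Apaf1, and it was among the libraries with the fewest nuclear reads (2.23 M).

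Apaf1 in peak replicate 3 stood far below the other peak libraries, at 18.3 CPM against 34.5 to 35.1 CPM. Peak replicate 3 was 1 of the 3 libraries of highest receptor share, and the other 2, naive replicates 3 and 4, also had the lowest naive values of Apaf1 (21.3 and 19.7 CPM). These 2 values came from 27 groups of 4 or 5 libraries examined, of which chance marks about 1 in 20.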

How the results depend on the processing

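Of 757 fold changes of the 9 genes under 27 alternatives (16 of them leaving out 1 library), 0 passed the adjusted threshold and 695 kept their direction. The 62 that did not belonged to values of at most 0.40 in size, and the cause was not tested. Of the 29 fold changes, 12 kept their direction throughout, among them Aifm1 at onset, Bbc3 at peak and Bcl2l1 at onset.

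With nuclear totals as the scale, Bcl2 (0.030), Bbc3 (0.027), Casp9 (0.040) and Apaf1 (0.072) at onset and Bcl2 (0.015) and Apaf1 (0.051) at peak were above naive. With limma-trend this held for Bbc3 (0.073) and Apaf1 (0.042) at onset and Apaf1 (0.0022) and Aifm1 (0.027) at peak. With the receptor share covariate it held for Bbc3 (0.11) and Apaf1 (0.053) at the presymptomatic stage, Bcl2 at onset (0.064) and Aifm1 at peak (0.069). With the replicate block it held for Bbc3 (0.18) and Apaf1 (0.036) at the presymptomatic stage, Bbc3 (0.12), Casp9 (0.021) and Apaf1 (0.24) at onset, and Bax (0.096) and Apaf1 (0.12) at peak. Without label numbers 16 and 17 Bbc3 was at 0.095 at the presymptomatic stage, and Bcl2 at 0.051, Bbc3 at 0.28 and Bcl2l11 at −0.025 at onset. Without the 3 libraries of highest receptor share, chosen after seeing the data, Aifm1 was at 0.39 at the presymptomatic stage and 0.40 at peak, Bcl2 at 0.089 at onset and 0.0080 at peak, and Bcl2l1 at −0.11 at peak. Scaled by chromosome X reads, Aifm1 at peak was at 0.16.

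Leaving out 1 library in turn gave ranges across 0 for Bak1 (−0.51 to 0.094), Bcl2 (−0.0018 to 0.20), Bbc3 (−0.36 to 0.13), Apaf1 (−0.38 to 0.055) and Casp9 (−0.036 to 0.28) at the presymptomatic stage. At onset they were Apaf1 (−0.14 to 0.16), Bbc3 (−0.31 to 0.28), Bcl2 (−0.16 to 0.066), Casp9 (−0.39 to 0.20) and Bcl2l11 (−0.027 to 0.24). At peak they were Apaf1 (−0.15 to 0.16), Bcl2 (−0.14 to 0.059), Aifm1 (−0.37 to 0.20), Bax (−0.43 to 0.092) and Casp9 (−0.062 to 0.32).

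DESeq2 called 1 gene between peak and naive, 1 between onset and presymptomatic, 5 between peak and onset and 5 in the F test, against 0 with edgeR. Without the 3 libraries of highest receptor share, 1 gene was called between peak and presymptomatic and 1 in the F test. Replicate numbers were shared between stages but do not mark shared animals in the labels: deviations of same-numbered libraries correlated at a median r of −0.0059 over 21 pairs (range −0.34 to 0.37), and with the replicate block edgeR called 1 gene between onset and presymptomatic libraries and 0 elsewhere. Bak1, with 2 to 77 reads per library, and Bax, with 8 to 145, had the largest standard errors at onset (0.56 and 0.41), and the parts of read depth and of spread between libraries in these were not tested.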
